A study of Mus musculus with 6 samples.

Results

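The class that the deposited cell table names round spermatids step 1-2 held 2251 of 46495 testicular cells, in a table of 17 classes and 25771 genes. Its members were every cell with that fine class name, and all 2251 also carried the broad class of spermatocytes. The class had its highest levels of Ccna1 and Aurka, a cyclin and a kinase of late spermatocytes, while 16 of 18 measured genes of early round spermatids were higher in the step 3 class, 11 of them at least 10-fold. Step 3 also held Ccna1 and Aurka, and per cell both were higher in the late pachytene to early diplotene class than in this one. The spermatocyte gene Hist1h1t was at 0.0613 times its level in the late pachytene to early diplotene class. These markers therefore do not settle whether the deposited name fits. The share of X-linked transcripts lay between those of the neighbouring classes. The class is called here by the deposited name only as a label, or the step 1-2 class for short.

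Testes of adult C57BL6 mice were dissociated by enzyme and profiled as single cells with the 10x Genomics 3′ chemistry. This method counts each captured transcript once, as a unique molecular identifier (UMI), near its 3′ end. Of 6 libraries, 3 came from the genotype labelled NONO (libraries TA, TB and TC) and 3 from the genotype labelled NONO△ER, written NONO deltaER from here on (TD, TE and TF). The cell table calls the groups WT and KI, which were read as NONO and NONO deltaER, and with the opposite reading all directions below would turn. NONO is an X-encoded nuclear RNA- and DNA-binding protein, and the labels state neither what deltaER alters nor how the line was made. The labels do not state whether the 3 libraries of a genotype are separate animals, so a p-value here covers the spread among libraries, and this spread may be technical. The class contributed 383, 395 and 368 cells in TA, TB and TC and 378, 314 and 413 in TD, TE and TF, with 5612592 to 8647383 UMI summed per library.

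The libraries fell into sets that cross the genotypes. The median mitochondrial share of UMI in the class was 0.412% in TA, 0.446% in TB and 0.419% in TF, but 0.0642% in TC, 0.0718% in TD and 0.0597% in TE. These are called the high and the low mitochondrial set. No label ties them to a batch, and genotype differences are given within each set where they bear on a result. Such a difference rests on TF alone for NONO deltaER in the high set, and on TC alone for NONO in the low set. A doublet caller run per library marked 185 cells in all (0.398%), 3 of them in the class, too few to show that it worked. Of the class cells, 2.09% lay among the 5% of cells with the highest doublet scores. Cell barcodes seen in more than 1 library numbered 650, and 58 class cells carried one.

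A primary spermatocyte completes recombination and synapsis in the long pachytene stage, disassembles the synaptonemal complex in diplotene, and then passes through both meiotic divisions in quick succession to give haploid round spermatids. Entry into division relies on cyclin-dependent kinase with A- and B-type cyclins and on Aurora and Polo-like kinases, and exit relies on the anaphase-promoting complex. In male meiosis the X and Y chromosomes are silenced at pachytene, and part of their genes are transcribed again in spermatids. Acrosome proteins such as SPACA1 and ACRV1 mark the young haploid cell.

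The upstream DNA of 4 of the genes on which the description turns is shown so that the genes that peaked in the class can be set beside one with its peak in a later class. Each sequence is the 250 bases before the RefSeq start of the gene on build GRCm38.p6, read in the direction of transcription. In the GENCODE annotation used for gene positions below, the Ccna1 window lies inside the gene and the Cenpe window runs past the Cenpe start. Capitals mark, on either strand, the cell cycle homology element TTTGAA, the box CCAAT, the MYB core AACNG, the cAMP response element (CRE) TGACGTCA and its core TGACG, which also lies within the full element. Ccna1 (chr3:55055056-55055305, minus strand) and Aurka (chr2:172370571-172370820, minus strand) are the marker genes of the class, Cenpe (chr3:135212313-135212562, plus strand) encodes a kinetochore motor, and Spaca1 (chr4:34050066-34050315, minus strand, 1 of 2 starts listed) encodes an acrosome membrane protein.
Ccna1: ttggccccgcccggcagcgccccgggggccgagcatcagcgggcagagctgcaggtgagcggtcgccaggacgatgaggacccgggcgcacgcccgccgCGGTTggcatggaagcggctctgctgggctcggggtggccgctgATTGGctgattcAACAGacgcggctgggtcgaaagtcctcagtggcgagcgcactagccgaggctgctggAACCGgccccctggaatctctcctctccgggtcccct
Aurka: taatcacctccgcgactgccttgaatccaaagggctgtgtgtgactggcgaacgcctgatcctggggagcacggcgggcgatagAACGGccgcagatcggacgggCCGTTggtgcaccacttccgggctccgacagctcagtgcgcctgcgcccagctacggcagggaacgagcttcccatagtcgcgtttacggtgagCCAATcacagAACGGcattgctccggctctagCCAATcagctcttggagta
Cenpe: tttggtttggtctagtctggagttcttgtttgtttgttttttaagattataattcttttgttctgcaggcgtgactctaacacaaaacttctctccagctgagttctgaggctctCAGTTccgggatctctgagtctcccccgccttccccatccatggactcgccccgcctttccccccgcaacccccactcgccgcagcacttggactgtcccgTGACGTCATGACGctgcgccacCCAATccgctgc
Spaca1: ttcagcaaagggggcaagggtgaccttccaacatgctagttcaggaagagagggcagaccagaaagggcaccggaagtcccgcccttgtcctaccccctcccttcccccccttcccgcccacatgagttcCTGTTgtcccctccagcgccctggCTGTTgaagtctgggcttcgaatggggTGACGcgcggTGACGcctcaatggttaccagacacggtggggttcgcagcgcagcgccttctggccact

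CCAAT occurred in the windows of Ccna1, Aurka and Cenpe and in 34.5% of all 27025 promoter windows of this length. The MYB core occurred in all 4 and in 74.1% of all windows. The full CRE occurred in Cenpe alone of the 4 and in 1.62% of all, and the core in Cenpe and Spaca1 and in 17.9% of all. TTTGAA was in none of the 4 and in 16.3% of all. These matches describe letters and not bound sites.

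Levels below are CPM, a gene's UMI count per 1000000 UMI summed over the class in a library, given as the mean ± SD over libraries. Because the deposited classes were made from these same cells, differences between classes are descriptions and carry no test. Ccna1 (chromosome 3, 55045469 to 55055501 in mm10) was at 573, 549 and 595 CPM in TA, TB and TC (NONO) and at 600, 587 and 529 CPM in TD, TE and TF (NONO deltaER). All 6 values lay above those of the late pachytene to early diplotene class (339 ± 18.4 CPM) and of the step 3 class (413 ± 33.1 CPM; SD, n = 6 each). Aurka (chromosome 2, 172356190 to 172370535), the spindle kinase Aurora A, was at 869, 825 and 858 CPM in NONO and at 844, 840 and 815 CPM in NONO deltaER, against 617 ± 17 CPM before and 583 ± 12.1 CPM after. At least 1 Ccna1 UMI was present in 98.5% of class cells, 96.0% of late pachytene to early diplotene cells, 93.9% of step 3 cells and 10.9% of Sertoli cells, at median depths of 15876, 32452, 12854 and 1836 UMI per cell. With each cell thinned to 1000 UMI, leaving out 467 Sertoli cells and 1 step 3 cell that were shallower, the class had the highest share of the first 3, at 42.9% against 26.1% and 32.4%.

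The scale matters for this comparison, because the cells of the preceding class carried more UMI. Per cell, Ccna1 gave 12.1 UMI in late pachytene to early diplotene, 10.8 in the step 1-2 class and 6.15 in step 3. Aurka gave 21.9, 15.9 and 8.63 UMI per cell. The peak of both genes in the class is thus a peak of their share of the transcriptome, and per cell both were higher in the preceding class. Ccnb1, cyclin B1, was higher on both scales: 273 ± 10.6 CPM against 68.2 ± 5.22 before and 206 ± 4.35 after, and 5.11 UMI per cell against 2.41 and 3.04.

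Among late spermatocyte and division entry genes, 19 of 20 listed were measured, 7 were highest in the class, 10 were higher than in both neighbouring classes and 17 were lower in step 3 than in the class. Cyclin B2 (Ccnb2) was at 486 ± 24.8 CPM, against 255 in late pachytene to early diplotene and 426 in step 3. The Polo-like kinase gene Plk1 was at 387 ± 20.6 CPM, against 152 and 298. Nek2, a centrosome kinase, was at 665 ± 26.1 CPM, against 540 and 368, and then at 23.5 in step 4-5. Lin54, of the DREAM and MuvB complex that binds cell cycle promoters, was at 129 ± 4.81 CPM, against 84.8 and 58.3.

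Several genes of the same list were lower in the class than in the preceding one. Cks2, a small subunit of cyclin-dependent kinase, was at 94.9 ± 5.30 CPM after 393 ± 45.8 in late pachytene to early diplotene, and was at 18.7 ± 2.90 in step 3. Fbxo43, an inhibitor of the anaphase-promoting complex, stood at 150, 69.6 and 13.49 CPM in the same order, and Calm2, a calmodulin gene, at 1325, 708 and 171 CPM. The chaperone gene Hspa2, which is needed for the end of prophase, was at similar levels, 2785, 2710 and 2479 CPM. Summed over the list, the share of UMI was 1.31% in late pachytene to early diplotene, 1.17 ± 0.0651% in the class and 0.947% in step 3.

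Chromosome segregation and spindle genes took a larger share of UMI in the class than in either neighbour. Of 36 listed, 31 were measured, 12 were highest in the class, 18 were higher than in both neighbours and 29 were lower in step 3. Their summed share of UMI was 0.459% before, 0.578 ± 0.0241% in the class and 0.319% in step 3. Cenpe was at 585, 629 and 534 CPM in TA, TB and TC and at 513, 558 and 650 CPM in TD, TE and TF, above every library of late pachytene to early diplotene (255 ± 24.8) and of step 3 (392 ± 36.9), and its UMI per cell were also highest in the class among the 3, at 10.7 against 8.93 and 5.73. Incenp, the scaffold of the chromosomal passenger complex, was at 306 ± 10.8 CPM, against 179 and 196. Per cell, Incenp was lower than before, at 5.73 UMI against 6.37 in late pachytene to early diplotene and 2.89 in step 3. Spc25, of the NDC80 kinetochore complex, was at 162 ± 6.79 CPM against 62.9 and 80.1, and its partner Ndc80 at 151 ± 8.33 against 119 and 35.2. Espl1, which encodes separase, the protease that opens cohesin, was at 202 ± 13.6 CPM against 142 and 98.2. The cytokinesis kinesin gene Kif23 was at 211 ± 11.2 CPM against 65.8 and 118, although its highest class was differentiated spermatogonia. Cdca8, another passenger complex gene, had its highest level before the class, at 477 CPM, then 431 ± 14.99 in the class and 119 in step 3.

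All 17 genes listed for the anaphase-promoting complex were measured, and 3 were highest in the class: the subunit gene Cdc27 (329 ± 14.4 CPM), the activator gene Fzr1 (214 ± 8.61 CPM) and the ubiquitin-conjugating enzyme gene Ube2c (139 ± 11.9 CPM). The activator gene Cdc20, kept in the segregation list, was also highest there, at 224 ± 22.8 CPM against 174 and 144. Of 17 centriole and centrosome genes, 4 were highest in the class: Cep63, Cep135, Sass6 and Stil. Stil, a centriole assembly factor gene, was at 124 ± 4.94 CPM in the class and 34.7 in step 3.

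**Figure D1:**
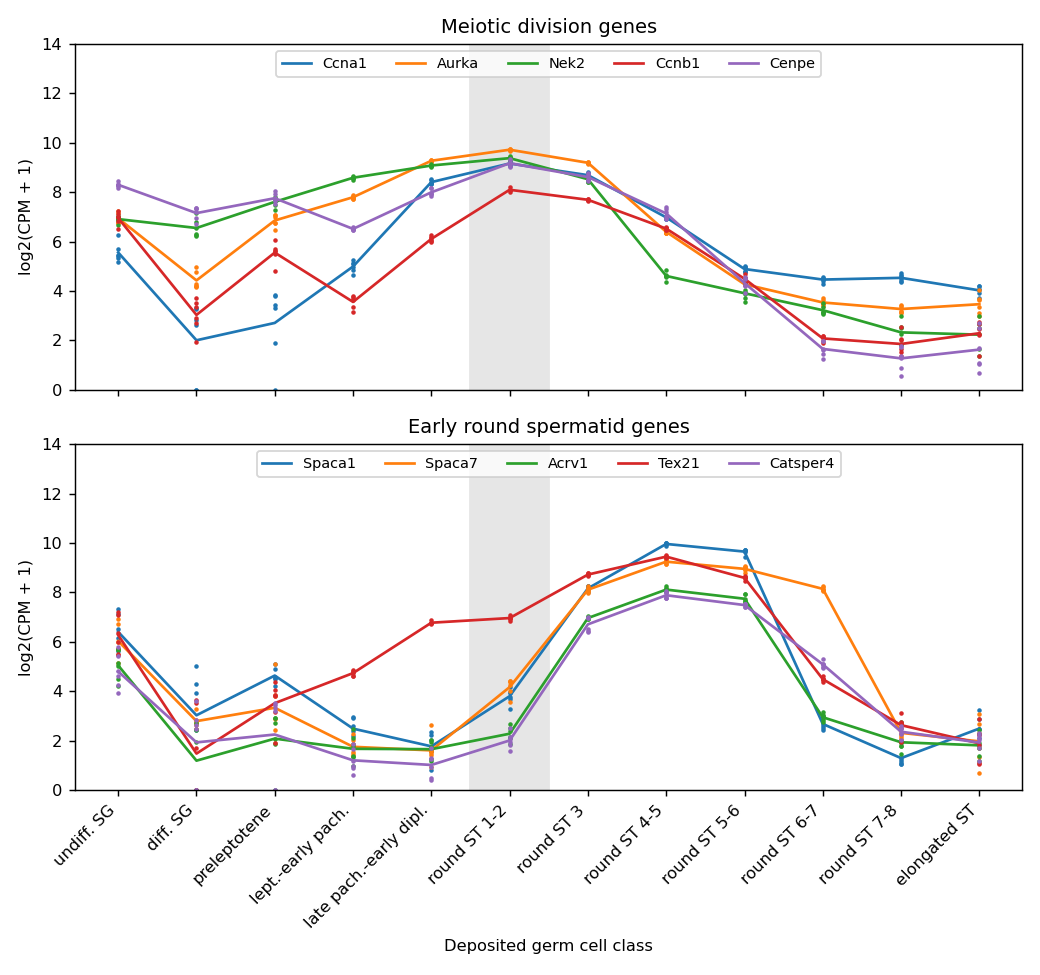
Levels of 5 meiotic division genes (top) and 5 early round spermatid genes (bottom) across the 12 deposited germ cell classes, as log2(CPM + 1); points are the 6 libraries, lines their means, and the grey band marks the step 1-2 class. All 5 division genes are at their highest in the band, while Spaca1, Spaca7, Acrv1 and Catsper4 are more than 10-fold higher in step 3 than in the band.

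Prophase genes were mostly past their peak. Of 16 measured genes of the chromosome axis and synapsis, 13 were highest in a class before this one, and none of 19 recombination genes was highest in the class. The summed share of UMI of the 16 changed little, at 0.324% before, 0.307 ± 0.00850% in the class and 0.289% in step 3. Of them, 4 were higher than in both neighbours and 9 were lower in step 3 than in the class. The 19 recombination genes summed to 0.0805%, 0.0651% and 0.0409% in the same order. The axis gene Sycp2 was at 236 ± 11.7 CPM after 432 in late pachytene to early diplotene, and the HORMA-domain gene Hormad1 at 174 ± 5.73 after 212. Mlh3, a crossover endonuclease subunit, was at 123, 100 and 14.5 CPM in late pachytene to early diplotene, the class and step 3. Of the other 3 axis and synapsis genes, Syce1, a central element gene of the synaptonemal complex, was highest in the class at 1248 ± 76.6 CPM against 1162 and 1196, a small difference. The cohesin gene Rec8 was highest in step 4-5 and Syce2 in elongated spermatids, and both were low in the class, at 2.99 ± 0.324 and 6.98 ± 2.12 CPM.

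The gene that was lower by the widest margin than in the preceding class was Hist1h1t, the testis linker histone gene of spermatocytes. It was at 2053 ± 114 CPM in late pachytene to early diplotene, 126 ± 32.5 in the class and 22.2 ± 3.55 in step 3. The class level was 0.0613 times that of the preceding class. Sertoli cells, which should lack this transcript, held 260 ± 86.8 CPM of it. Another testis histone gene, Hist1h2ba, was at 84.0 ± 24.4, 6.72 ± 0.850 and 3.01 ± 0.580 CPM, and Cyp19a1, which encodes aromatase, at 284 ± 22.7, 18.7 ± 3.09 and 5.33 ± 0.610 CPM.

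Most early round spermatid genes were low in the class. Spaca1 was at 11.9, 14.1 and 12.5 CPM in TA, TB and TC and at 14.8, 16.9 and 8.64 CPM in TD, TE and TF, and the genotypes overlapped. Its level was 2.60 ± 1.24 CPM before the class, 286 ± 18.4 in step 3, 995 in step 4-5 and 90.2 ± 36.9 in Sertoli cells, which should lack it. Of class cells, 16.8% held a Spaca1 UMI, against 5.29% in late pachytene to early diplotene, 85.7% in step 3 and 13.7% in Sertoli cells, and after thinning to 1000 UMI the shares were 1.53%, 0.312%, 23.6% and 7.61%. The class was thus above the preceding class on both scales, but above Sertoli cells only without thinning. Thinning keeps a smaller part of the UMI of the deep class cells than of the shallow Sertoli cells, so neither scale sets them on equal terms for RNA from outside the cell. Acrv1 was at 3.92 ± 0.985 CPM in the class and 124 ± 4.25 in step 3, with UMI in 6.26% of class cells and 5.73% of Sertoli cells.

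Across the early round spermatid list, 18 of 20 genes were measured, 16 were higher in step 3 than in the class, and 11 were at least 10-fold higher there: Acrv1, Spaca1, Spaca7, Catsper3, Catsper4, Sun5, Lyzl1, Lyzl4, Ssxb1, Tmco2 and Izumo1. By level and by the thinned share of cells, which are both set relative to depth, 13 were at or below Sertoli cells. Without thinning, the share of cells with a UMI was above that of Sertoli cells for 6 of these 13 (Acrv1, Spaca1, Sun5, Lyzl6, Ssxb1 and Spaca7). This unthinned share rises with depth, and the median was 15876 UMI in the class and 1836 in Sertoli cells. The 5 genes above Sertoli cells by level were also found in the preceding class. Crem, a master regulator of spermatid transcription, was at 347, 402 and 657 CPM in late pachytene to early diplotene, the class and step 3. The acrosomal protease gene Acr was at 271, 326 and 390 CPM, Tex21 at 108, 124 and 421 CPM, and the vesicle gene Spata16 at 1115, 843 and 631 CPM. Rfx2, a transcription factor of spermatids, was the 1 listed gene highest in the class, at 447 ± 14.8 CPM against 409 and 403. None of 16 measured late spermatid genes was highest in the class, and 6 reached 20 CPM there. The 16 summed to 0.412% of UMI before, 0.410 ± 0.00477% in the class and 0.529% in step 3. This share was thus similar in the class and the preceding one.

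Most genes for later sperm structures had their highest level after the class. Of 34 flagellum and axoneme genes, 20 had their highest level after the class, 9 before and 5 in it, and their summed share of UMI was 2.57% before, 2.47 ± 0.0391% in the class and 2.55% in step 3. Dnaic2, an axonemal dynein chain gene, was at 257 ± 6.30 CPM against 134 and 183. Of 24 acrosome genes, 3 were highest in the class: Zpbp2, Dpy19l2 and Agfg1. In sperm glycolysis the class had the highest level of Ldhc, the testis lactate dehydrogenase gene (1443 ± 266 CPM), of Pfkm and of Pfkp, 3 of 17 measured genes, while 12 were highest later. Ddx4, the germ cell helicase gene of the chromatoid body, was highest in the class at 1392 ± 43.8 CPM against 1034 and 1306.

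Most somatic and spermatogonial genes were close to 0. The summed share of UMI was 0.000882% for 15 Sertoli genes, 0.00310% for 19 spermatogonial genes and 0.000790% for 13 macrophage genes, and 11, 13 and 10 of these genes were under 1 CPM. The 10 peritubular myoid genes summed to 0.00654%, with 6 under 1 CPM but 2 at 20 CPM or more.

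Seen across all genes, 3563 genes reached 50 CPM in the class, and 708 were higher there than in each of the other 16 classes. Of these, 449 genes (12.6% of the 3563) were also above the class with the second-highest mean in 6 of 6 libraries, and these are called peak genes. Their margin was narrow: the median ratio to the second-highest class was 1.15, the highest 1.81, and 11 genes reached 1.5. The second-highest class was late pachytene to early diplotene for 218, step 3 for 210 and another for 21. On the scale of UMI per cell, only 22 of the 449 were above late pachytene to early diplotene, and all 449 were above step 3.

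The peak gene with the largest ratio was Zbtb5, a zinc finger gene, at 90.6 ± 5.31 CPM against 50.04 ± 1.76 in late pachytene to early diplotene. Senp1, which encodes a SUMO protease, was at 290 ± 8.62 CPM against 181, and Cutc, a copper homeostasis gene, at 193 ± 9.17 against 118 in step 3. The RFX family gene Rfx8 was at 345 ± 21.2 CPM against 227 in step 3, and Pkdrej, a polycystin family gene of sperm, at 159 ± 7.60 against 103. Mttp, which encodes the microsomal triglyceride transfer protein, was at 78.6 ± 3.99 CPM, and its second class was preleptotene spermatocytes at 44.4. The other genes among the 20 with the largest ratios were Nsmaf, Nkx2-4, Arhgef10, Incenp, Fam192a, D1Ertd622e, Lcmt1, Zbtb10, Cenpe, Rexo2, Polg, Itpk1, Enpp4 and Wfdc3, with ratios down to 1.45.

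**Figure D2:**
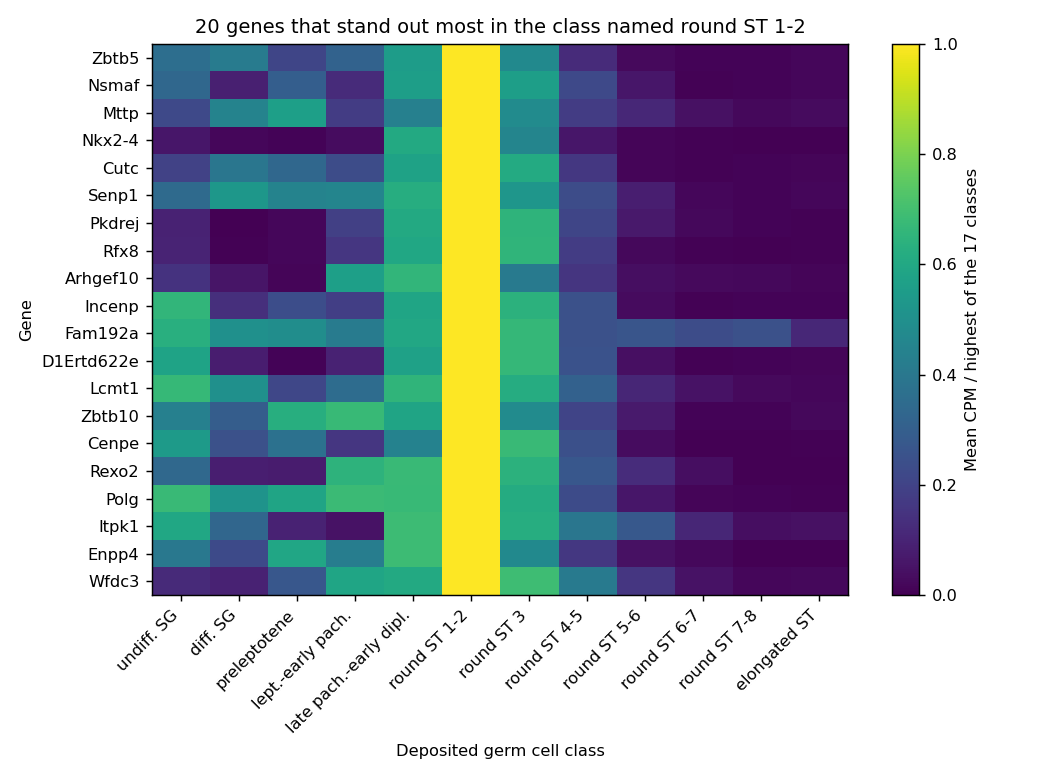
Mean CPM of the 20 peak genes with the largest ratio to the second-highest class, in the 12 germ cell classes, as a fraction of the gene's highest class (colour scale from 0 to 1). The step 1-2 class is at 1 by the choice of genes, the second-highest classes are lower by ratios of 1.45 to 1.81, and most of the genes are near 0 from step 5-6 onward.

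Position between the neighbours was uneven. Over 7116 genes at 20 CPM or more in the class or a neighbour, the Spearman correlation of mean levels across genes was 0.950 with late pachytene to early diplotene, 0.797 with leptotene to early pachytene, 0.719 with step 3 and 0.435 with step 4-5. These are correlations across genes, which are not replicates, in classes that share the same libraries. On log2(CPM + 1), 423 genes were at least 2-fold higher and 313 at least 2-fold lower than in late pachytene to early diplotene. Against step 3, 869 were at least 2-fold higher and 1297 at least 2-fold lower in the class. Of the 423, 328 were higher still in step 3 and 34 were highest in the class, and of the 313, 228 were lower still in step 3. Besides Ccnb1 and Kif23, genes higher than in the preceding class included the kinesin gene Kif18b (196 ± 9.56 CPM against 63.4), the phosphatase gene Cdc25a (103 ± 4.24 against 35.5) and the fibrous sheath gene Fsip1 (201 ± 6.63 against 58.6, and 586 in step 3).

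X-linked transcripts took a small share of UMI that was above its minimum in the preceding class. By symbol, 956 measured genes were placed on X. They gave 0.132%, 0.135% and 0.120% of class UMI in TA, TB and TC and 0.129%, 0.133% and 0.128% in TD, TE and TF. The share was 0.0344 ± 0.00699% in late pachytene to early diplotene, 0.129 ± 0.00521% in the class, 0.535 ± 0.0172% in step 3 and 1.05 ± 0.00854% in step 4-5, without overlap between these classes in any library. The X share was 3.76 times that of the preceding class, while the shares of single autosomes had ratios of 0.971 to 1.03. In step 3 it was 4.13 times that of the class, against 0.921 to 1.14 for autosomes. X-linked UMI per cell were 11.8, 24.4 and 78.7 in late pachytene to early diplotene, the class and step 3, the same order. The Y-linked share, over 314 genes, was 0.00106%, 0.00526% and 0.0560%.

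Many genes contributed to the X-linked share. Those at 10 CPM or more numbered 2 in late pachytene to early diplotene, 36 in the class and 132 in step 3, and of 73 X-linked genes among the 7116 compared, 49 were at least 2-fold higher than in the preceding class and 0 were 2-fold lower. Alg13, which encodes a subunit of an N-glycosylation enzyme, was at 59.6, 58.8 and 56.1 CPM in TA, TB and TC and at 54.5, 61.3 and 51.4 CPM in TD, TE and TF. Its mean of 56.9 was 26.6 times the 2.14 ± 0.643 CPM of late pachytene to early diplotene, and step 3 had 125 ± 7.04. The zinc finger gene Zfp711 stood at 2.09, 49.2 and 75.7 CPM in the 3 classes, Phf6, a PHD finger gene, at 3.09, 43.1 and 87.9, the deubiquitinase gene Usp9x at 2.26, 29.2 and 60.8, and the ciliary gene Ribc1 at 1.86, 35.8 and 179. Nxf2, an RNA export factor gene, was higher in the class (34.0 ± 2.78) than before (2.48) or in step 3 (15.01). Akap4, the fibrous sheath gene, went the other way, at 72.5 ± 26.8, 40.1 ± 6.71 and 229 ± 20.4 CPM, and Sertoli cells, which should lack it, held 2752 ± 548 CPM.

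**Figure D3:**
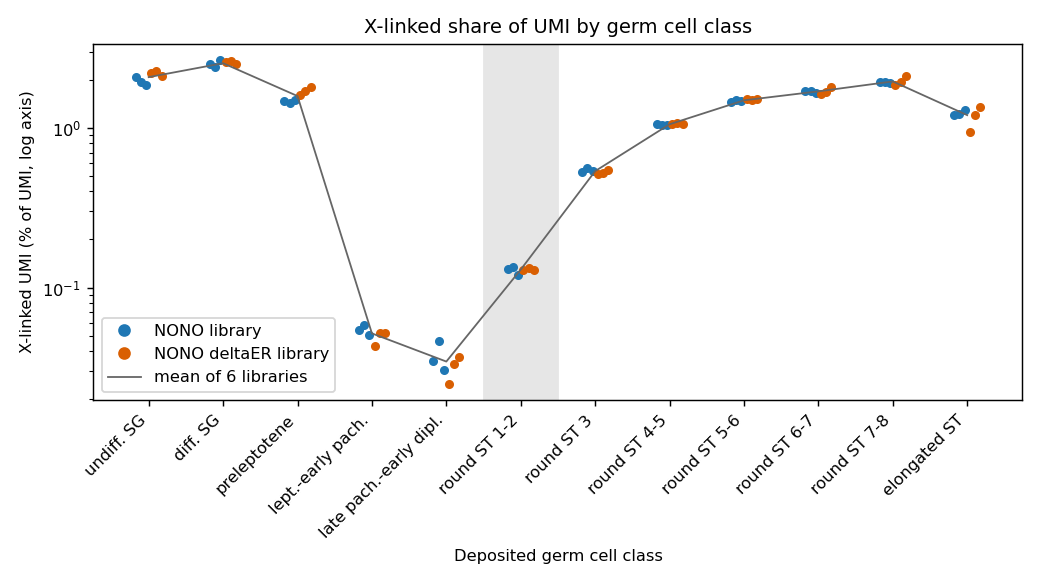
X-linked share of UMI in each germ cell class on a log axis; points are libraries (NONO and NONO deltaER in separate colours) and the line is the mean of the 6. The step 1-2 class (grey band) sits between the minimum in late pachytene to early diplotene and the spermatid classes, and the colours overlap within it.

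Cells within the class were also ranked by the balance of the late spermatocyte and early round spermatid lists. Of the 18 measured early list genes, only 5 reached 20 CPM in the class: Spata16, Rfx2, Crem, Acr and Tex21. These were also found in the preceding class. The early list took 0.227% of UMI in late pachytene to early diplotene, 0.220% in the class and 0.378% in step 3. The ranking therefore rests mostly on these 5 genes and says little about genes such as Spaca1 and Acrv1. Each library's cells were ranked by the ratio of late spermatocyte list UMI (median 182 per cell) to early round spermatid list UMI (median 35 per cell) and divided into 3 ranges of 752 (spermatid-side), 752 (middle) and 747 cells (spermatocyte-side), which are ranges of a continuous score. Of all class cells, 1015 lay within 0.1 log2 units of a dividing value. The X-linked share of UMI was 0.149% in the spermatid-side range, 0.126% in the middle and 0.117% in the spermatocyte-side range. Median UMI per cell were 12874, 17395.5 and 17046, and 2.93%, 1.99% and 1.34% of cells were among the highest doublet scores, and the part of depth and doublets in this order was not tested.

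Of 3542 genes outside these lists at sufficient level, 384 were higher and 260 lower in the spermatocyte-side than in the spermatid-side range in 6 of 6 libraries. Of the 260, 204 were higher in step 3 than in late pachytene to early diplotene, as were 53 of the 384. The same share over all 3542 genes was not computed, nor was the number expected to agree in 6 of 6 libraries by chance. These counts are therefore descriptions only. Fbxl13, an F-box gene, was at 35.8 ± 7.39 CPM in the spermatocyte-side range and 74.1 ± 7.53 in the spermatid-side range, and its level was 14.4 in late pachytene to early diplotene and 266 in step 3. The axonemal gene Cfap61 was at 113 ± 4.56 against 163 ± 13.99 CPM. In the other direction, Ncapd3, a condensin subunit gene, was at 78.0 ± 8.59 against 54.5 ± 7.29 CPM, and Ube2t, a ubiquitin-conjugating enzyme gene of DNA repair, at 116 ± 10.8 against 85.6 ± 7.80.

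The study set NONO deltaER against NONO. Nono, the X-linked gene that the genotypes are named for, was too low in the class to check the labels, at 0.401, 0.535 and 0.150 CPM in TA, TB and TC and at 0.116, 0.420 and 0.314 CPM in TD, TE and TF, against 114 CPM in undifferentiated spermatogonia. The class made up 4.30%, 4.65% and 4.86% of cells in TA, TB and TC and 5.39%, 5.02% and 5.01% in TD, TE and TF. The genotypes did not overlap, with means of 4.60 ± 0.285% and 5.14 ± 0.217% (SD, n = 3 each), but the exact two-sided permutation p was 0.1, the smallest that 3 against 3 can give, and 0.7 after Benjamini-Hochberg adjustment over 7 measures. The difference was 0.538 percentage points within the high mitochondrial set (TF alone against TA and TB) and 0.338 within the low set (TD and TE against TC alone). As a share of germ cells the means were 5.02 ± 0.278% and 5.61 ± 0.278%.

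The other 6 measures overlapped between genotypes. X-linked genes took 0.129 ± 0.00773% of UMI in the NONO libraries and 0.130 ± 0.00265% in the others (n = 3 each, SD; exact permutation p = 0.9). The late spermatocyte list took 1.20 ± 0.0654% against 1.14 ± 0.0629% of UMI (exact permutation p = 0.2, n = 3 each). Its difference of -0.0559 percentage points was -0.0226 within the high and -0.0160 within the low mitochondrial set, with set means of 1.23% and 1.11% that did not overlap. The early round spermatid list took 0.217 ± 0.0151% against 0.222 ± 0.0139% (exact permutation p = 0.7, n = 3 each). Its share came mostly from its 5 genes at 20 CPM or more, which the preceding class also held. The log2 ratio of these lists was 2.47 ± 0.177 against 2.36 ± 0.169 (exact permutation p = 0.6, n = 3 each) and moved with the mitochondrial sets, with a mean of 2.56 in the high set and 2.27 in the low set, and their part in it was not tested. Median UMI per cell were 15203 ± 2368 against 17019 ± 2840 and median genes per cell 4307 ± 303 against 4524 ± 340 (exact permutation p = 0.5 for both, n = 3 each). Adjusted p-values of these 6 measures ran from 0.7 to 0.9. Leaving out 1 library moved the UMI difference from 1816 to between 647 (without TB) and 3456 (without TF), the gene difference from 217.5 to between 72.6 and 414 (the same libraries), and the difference in the log2 ratio from -0.104 to between -0.0341 (without TE) and -0.206 (without TC). Within the high set the UMI difference turned to -1492.5 and the gene difference to -187, and with cells thinned to 2000 UMI the gene difference was -0.590.

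**Figure D4:**
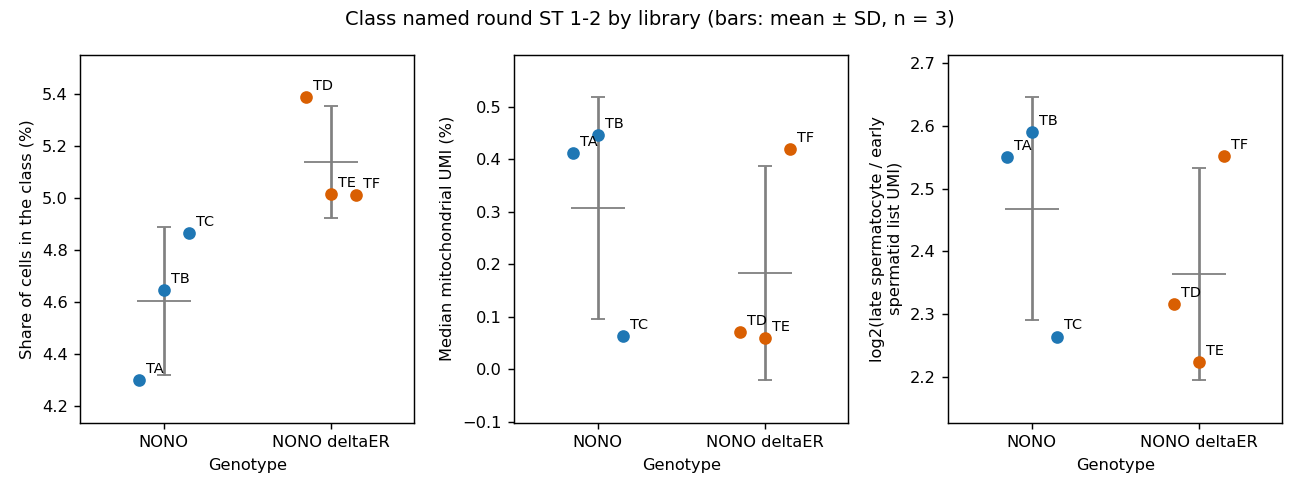
Values of the step 1-2 class in each library, by genotype: share of all cells, median mitochondrial share of UMI, and log2 ratio of late spermatocyte to early round spermatid list UMI; bars are mean ± SD of 3 libraries. The share of cells separates the genotypes, whereas TA, TB and TF stand above TC, TD and TE in the other panels.

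Of 11897 genes tested on UMI summed per library with edgeR's quasi-likelihood test, 0 (0%) differed between genotypes at an adjusted p under 0.05, and the lowest adjusted p was 0.9998. At an unadjusted p under 0.05 there were 280 (2.35%), and for 836 (7.03%) every library of one genotype lay above every library of the other. DESeq2 also called 0 genes, with 97 at an unadjusted p under 0.05. The median standard error of a log2 fold change was 0.15 over all genes and 0.08 over the 3563 genes at 50 CPM or more. Among the latter, 0 had a difference over 1 on the log2 scale and 15 over 0.5. In counts simulated for the class with these libraries' sizes, the same test found 56.2% of changes by 1.5-fold, 82.5% of those by 2-fold and 98.4% of those by 4-fold, with 16 false calls among 11674 genes. The simulated counts were drawn independently for each gene and held no difference between the mitochondrial sets. These shares therefore do not give the power of the test on the deposited counts.

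Genes that describe the class showed no called difference. Ccna1 was at 572 ± 23.4 CPM in NONO and 572 ± 37.7 in NONO deltaER (log2 fold change 0.00 ± 0.07 SE, edgeR adjusted p = 0.9998), and Aurka at 851 ± 22.9 and 833 ± 15.5 (-0.03 ± 0.06). Cenpe differed by -0.03 ± 0.09 and Spaca1 by 0.09 ± 0.22. The NONO partner genes of the DBHS family, Sfpq and Pspc1, differed by -0.16 ± 0.13 and -0.01 ± 0.07. Of the 449 peak genes, 240 were above 0 and 209 below, with a median of 0.01. Libraries did not overlap for 18 of them (4.01%, against 7.03% of all genes tested), and 4 had an unadjusted p under 0.05 (0.891%, against 2.35%).

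By list, no gene was called. Over all 11897 genes tested, 5934 were above 0 and 5963 below, with a median of -0.000226. Of all genes, 2.35% had an unadjusted edgeR p under 0.05. The late spermatocyte list had 5 genes above and 13 below 0 (median -0.03, 0 at an unadjusted p under 0.05), the segregation list 13 above and 17 below (median -0.01, 0), the anaphase-promoting complex list 11 above and 6 below (median 0.04, 1) and the early round spermatid list 7 above and 7 below (median 0.02, 0). The histone variant list, which holds Hist1h1t, had 12 above and 4 below (median 0.06, 1). Lists of other cell types had few tested genes, 4 spermatogonial (median -0.09), 2 Sertoli (-0.36), 1 Leydig (-0.09) and 1 macrophage gene (-0.35). Only 14 of the 18 measured early spermatid genes passed the filter on low counts.

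The genes with the lowest p among those without overlap are given although none passed adjustment (edgeR adjusted p = 0.9998 for each). Hist1h1t was at 96.5, 89.3 and 118 CPM in TA, TB and TC and at 136, 179 and 136 CPM in TD, TE and TF, a log2 fold change of 0.57 ± 0.14 SE, with differences on log2(CPM + 1) of 0.55 in the high and 0.40 in the low mitochondrial set. Every NONO deltaER library lay above every NONO library, at levels below the Sertoli class. Ankfn1, on chromosome 11, was at 70.0, 78.2 and 76.4 CPM against 92.5, 109 and 89.4 (0.37 ± 0.09), and Nmnat3, which encodes a mitochondrial NAD synthesis enzyme, at 74.4, 67.9 and 74.9 CPM against 103, 80.0 and 91.4 (0.33 ± 0.10). Others with a higher level in NONO deltaER were Gsdma, Arf4os, BC035947, Gm14144, Nfia and Lrrk2, from 0.37 to 0.68.

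In the other direction, Golim4, a Golgi membrane protein gene on chromosome 3, was at 5.75, 8.37 and 7.37 CPM in NONO and at 3.93, 2.80 and 3.14 CPM in NONO deltaER (-1.09 ± 0.23). Agbl1, which encodes a tubulin deglutamylase, was at 2.54, 2.67 and 1.95 CPM against 0.578, 0.560 and 0.942 (-1.79 ± 0.37). Both are low levels, and the genotypes did not overlap. The rest were 1700024G13Rik, Gm5432, Olfr482, Gm27174, Otx2os1, Mindy2, Gm47193 and Gm47882, from -1.43 to -0.56. Olfr482 (1.96 against 0.726 CPM) and Gm27174 (2.80 against 1.20) were also low. On log2(CPM + 1), Otx2os1, Gm47193 and Gm47882 differed by -0.82, -0.81 and -0.86 within the high mitochondrial set. Within the low set they differed by -0.18, -0.23 and -0.28. The other genes of this group differed less between the sets. Arf4os is annotated as antisense, and no source used here states whether the counting used strand. Whether its reads were kept apart from those of its partner gene was not checked.

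Of the 15 genes at 50 CPM or more with a difference over 0.5, named after their values were seen, 8 were mitochondrially encoded, and all 8 were higher in each library of the high mitochondrial set than in each of the low set. A further 5 (Gm31706, Jarid2, Gm19951, Tmtc2 and D130009I18Rik) were higher in TA and TB than in the other 4 libraries. Jarid2, a Polycomb cofactor gene, was at 348 and 256 CPM in TA and TB but at 164 in TC, 182 in TD, 155 in TE and 174 in TF, so that 1 NONO library sided with NONO deltaER. Leaving out TC gave the 1 call of any setting tried, Gm31706, at -0.96 (edgeR adjusted p = 0.0288), with 121 and 94.97 CPM in TA and TB, 55.8 in TC and 55.0, 59.4 and 51.0 in TD, TE and TF. The largest fold change of all, 4.31 ± 2.11 for Gm43640, came from TE at 75.2 and TD at 10.2 CPM, with 3.74 CPM or less in the other 4 libraries.

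**Figure D5:**
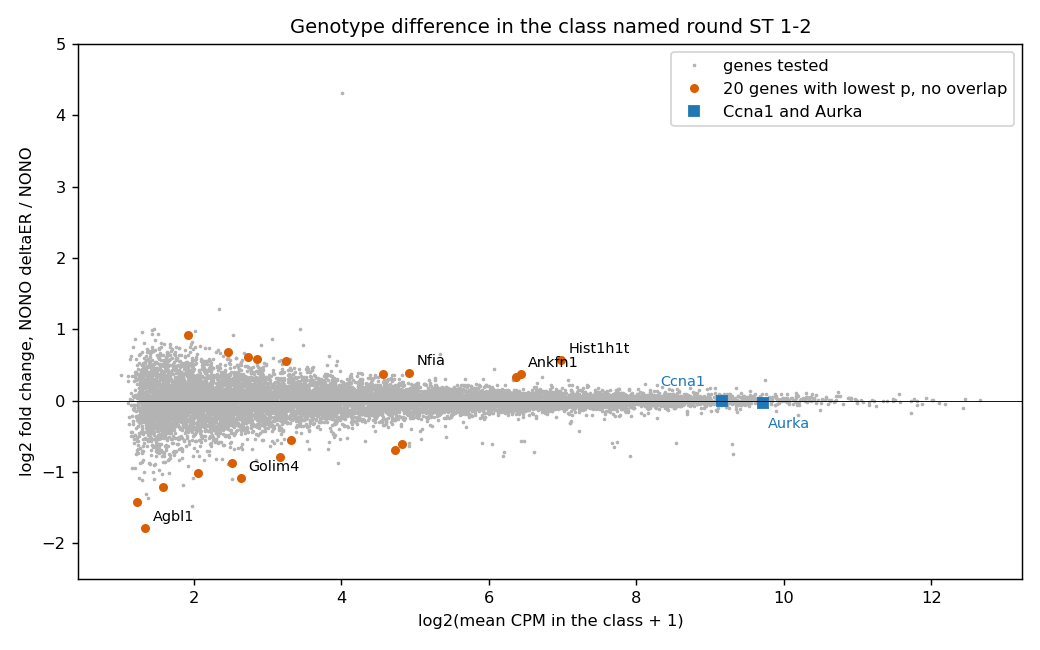
Log2 fold change of NONO deltaER over NONO against log2(mean CPM + 1) in the step 1-2 class; grey points are the 11897 genes tested, orange points the 20 genes with the lowest p without overlap (10 per direction), blue squares Ccna1 and Aurka. No gene passed the adjusted threshold, the spread narrows toward high levels, and the single point above 4 is Gm43640.

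Whether the genotype difference itself depended on the stage was tested on the log2 difference between classes within each library with limma. Against late pachytene to early diplotene, 0 of 10931 genes (0%) differed in response at an adjusted p under 0.05 (lowest adjusted p 0.509, with 540 below 0.05 before adjustment). Against step 3, 0 of 11613 (0%) did (lowest adjusted p 0.345, with 601 before adjustment).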

How the data were processed

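The deposited matrix holds UMI counts per gene and cell, whole numbers without normalization, and the authors' cell table adds library, group, class names and a mitochondrial percent per cell. The submitters' processing notes name Cell Ranger 2.1.1 and build mm10, and the sources used here give no later step. The class names were taken from the deposited table. The members, gene lists and tests were chosen with earlier results of these data known. Counts were summed per library and class, since cells are not replicates. Levels are CPM with each library weighted equally. NONO deltaER was tested against NONO with edgeR 4.0.16 (filterByExpr, TMM, a robust quasi-likelihood fit) and with limma 3.58.1 for differences between classes, in R 4.3.3, with Benjamini-Hochberg adjustment over all genes. DESeq2 1.42.0 was an alternative. Measures with 1 value per library had exact two-sided permutation tests, adjusted over 7. Symbols were placed on mm10 with the GENCODE annotation (97.6% matched 1 gene). Doublets were scored with Scrublet in scanpy 1.11.5, and none were removed. Thinned values are expected shares. Named genes were the 20 peak genes with the largest ratio to the second class, the 10 with the lowest p per direction among genes without overlap (1 of them is not reported here), and members of the lists. The test script was checked on simulated counts. Shares and levels carry counting error of UMI as well as the spread between libraries that the SD gives.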

Additional observations from a re-analysis of the deposited data

How the results depend on the processing

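The count of genes that differed between genotypes was 0 in all settings tried (0.9998 as lowest adjusted p in the reported fit, 0.0288 to 0.99999 over the others) except without TC, where it was 1. Leaving out 1 library at a time gave 0 to 1 calls. No paired analysis was possible because the libraries in the cell table carry letters that are not tied to the replicate numbers of the labels, so no replicate block was fitted. The measures below never passed a threshold, and 3 against 3 libraries cannot reach 0.05. Within the high mitochondrial set the difference turned to -1492.5 for median UMI per cell, -187 for median genes, -0.00125 percentage points for the early round spermatid list and -0.00490 for the X-linked share. Within the low set it turned to -0.00418 for the early list and to 0.00557 for the log2 ratio of the lists. Thinning to 2000 UMI turned the gene difference to -0.590. Leaving out 1 library gave differences of -0.0937 (TC) to -0.0319 (TE) percentage points for the late spermatocyte list. It gave differences of -0.000833 (TE) to 0.0138 for the early list, -0.000545 without TB, and of -0.00311 (TC) to 0.00426 for the X-linked share, -0.000274 without TE. Differences within a set rest on TF alone for NONO deltaER (high set) or on TC alone for NONO (low set). The cause of these turns was not tested. Counted as UMI per cell, 22 of the 449 peak genes were above late pachytene to early diplotene, whose cells held more UMI. The peak gene count was 375 to 554 under the other minimum levels and library subsets. No class cell had fewer than 1000 UMI, so that minimum changed nothing but the share of cells. The 13 lowest early spermatid genes were at 17.3 CPM or less in the class.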
